A study of Mus musculus with 26 samples.

Results

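The genes described here encode potassium, sodium, calcium and pacemaker channels of mouse heart. They are the probe sets that the array's probe table assigns to a single gene whose symbol begins with Kcn, Scn, Cacn or Hcn. The rule found 63 of the 8251 genes that a probe set names alone, with 76 of 12422 probe sets, 51 of them Kcn, 9 Scn, 13 Cacn and 3 Hcn. Mice had transverse aortic constriction (TAC), in which a tie around the aortic arch raises the pressure that the left ventricle works against, or a sham operation, and total RNA of the heart was measured. The 26 arrays, all of type MG_U74Av2, fell into 6 groups: 5 TAC and 4 sham arrays at 48 h, 4 TAC and 4 sham arrays at 10 d, and 5 TAC and 4 sham arrays at 3 wk. Strain, genotype, sex, age and the part of the heart taken are not given in the sources used here. Nothing there says that the arrays of a group came from separate animals, so a p-value here reflects only how far these arrays differed, and that may be technical variation.

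The heartbeat's electrical signal is carried by these channels in turn. Sodium channels start the action potential, L-type calcium channels hold it up and let in the calcium that triggers contraction, and several voltage-gated potassium channels end it. Inward rectifier and two-pore potassium channels hold the resting potential, and pacemaker channels pass the inward current that drives spontaneous firing. Hypertrophied heart muscle is known for longer action potentials, with loss of the transient outward potassium current among the causes described.

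Levels are log2 of the deposited intensity, with values below a floor of 167.9 (7.39 on the log2 scale) set to that floor. A probe set was tested when it lay above the pooled median of 880.1 (log2 9.78) in 4 or more of the 26 arrays. Of the channel probe sets 32 of 76, or 42.1%, from 29 genes, passed that filter, and of the whole array 7297 of 12422, or 58.7%. A change is called where limma's adjusted p, over all 7297 probe sets, is under 0.05, and every change is TAC minus sham on the log2 scale. Probe sets differ in how brightly they hybridise, so levels of different probe sets are not compared as amounts of RNA.

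Array medians were 742.2 to 1031.4, and no arrays held identical values. The 8 ventricular muscle markers (Myh6, Myl2, Myl3, Tnni3, Tnnt2, Actc1, Mb and Ckm) were all tested. The atrial muscle markers were Myl7, Myl4, Sln, Nppa, Bmp10, Nr2f1 and Nr2f2. A marker sum may differ through the tissue taken or through these genes' own expression, which cannot be told apart here. Atrial muscle markers varied widely within groups: their summed intensity, in units of 1000, was 12.3 to 330 on TAC arrays and 8.94 to 22.9 on sham arrays at 48 h, 16.7 to 143 and 12.7 to 131 at 10 d, and 29 to 235 and 83.2 to 236 at 3 wk. Per the headers of the array description files, all 48 h arrays were scanned on a single day. All 10 d arrays shared another day except TAC replicate 4, which had its own day and chip lot. At 3 wk, 1 day covered TAC replicates 1, 2 and 3 with sham replicates 2 and 3, and a second day TAC replicates 4 and 5, while the headers of sham replicates 1 and 4 hold no day. Because no day spans 2 durations, duration cannot be told apart from scan day.

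Of the 32 tested probe sets, 12, from 11 genes, were above the pooled median on every array. They are Cacna1c, the pore of the cardiac L-type calcium channel, and Cacnb2, its beta subunit, which brings the pore to the membrane. Hcn2 (94195_r_at) and Hcn3 are the pacemaker channels among them. Kcnh2 and both Kcnq1 probe sets encode the pores of the rapid and slow delayed rectifiers, and Kcna5 (102295_at) that of the ultrarapid one. Kcnj11 and Kcnj8 form the pores of ATP-sensitive channels, and Kcnk3 and Kcnk7 belong to the two-pore family. A further 14 probe sets were above it on more than 6 arrays but not on all. Those were Kcnd3 on 25 arrays, Cacna1b on 24, Hcn2 (94194_s_at) on 23, Kcnn1 on 20, Kcnj9 (161799_r_at) on 18, Kcnk2 on 17, Cacna2d1 and Kcnj4 on 16 each, Kcnk4 on 14, Kcnn4 on 13, Cacna1s, Kcnk1 and Kcnj9 (98332_at) on 11 each, and Kcnj5 on 9. The other 6 passed on few arrays: Kcnd2 (99339_r_at) and Kcns2 on 6, Kcnj12, Kcna2 and Scnm1 on 5, and Kcne1 on 4. Just outside the filter, Cacng1, Kcnab2 (162182_f_at) and Kcnma1 were above the pooled median on 3 arrays each.

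The 44 probe sets that were not tested include 35 above the pooled median on no array. By role, all 5 two-pore and all 3 pacemaker probe sets were tested, but none of the 8 for sodium channel pores and 1 of the 8 for potassium channel auxiliary subunits, Kcne1. The sodium channel probe sets are from 6 genes, Scn1a, Scn3a, Scn7a, Scn8a, Scn9a and Scn10a, and the median array lay at 16.5 to 459.4 intensity units. Other dim probe sets were Kcnj2, a strong inward rectifier known for setting the resting potential of ventricular muscle, with intensities of 16.3 to 388.0 and 19 arrays at or below the floor, and Kcna4, a pore of the slow transient outward current, with 43.3 to 376.9. The T-type calcium channel pores Cacna1g and Cacna1h ranged from 33.8 to 436.7 and from 35.8 to 654.0. A dim probe set shows only that this probe set gave little signal, and the channel may still be expressed.

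**Figure D1:**
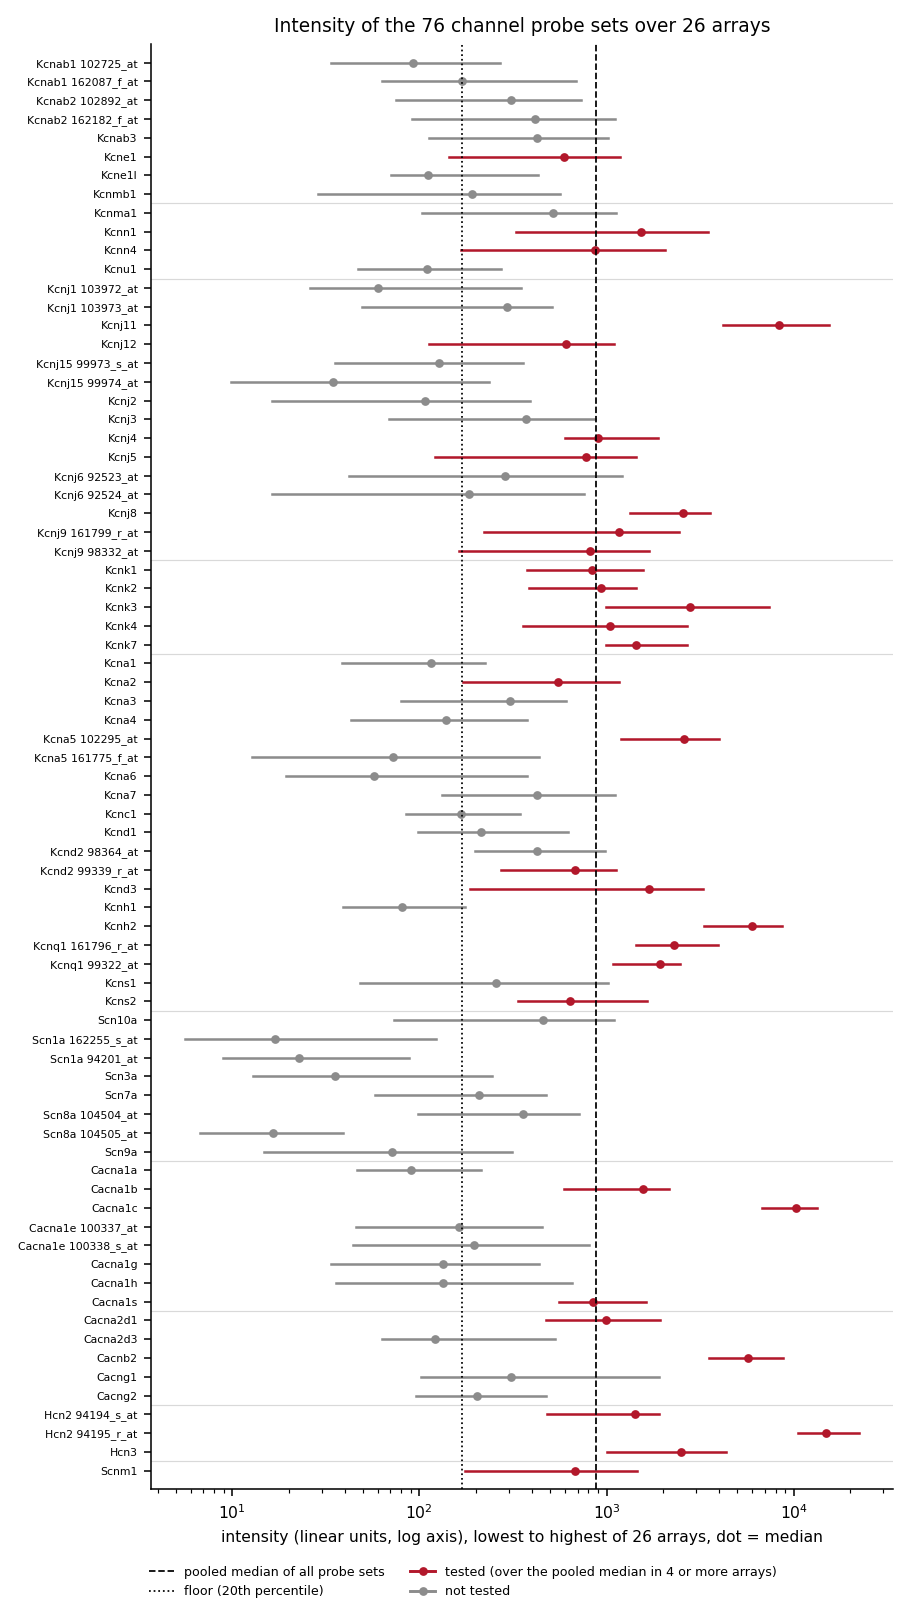
Intensity of the 76 channel probe sets, grouped by role, on a log axis of linear intensity: each line runs from the lowest to the highest of the 26 arrays and the dot is their median, red where the probe set was tested and grey where it was not; the dashed line is the pooled median of all probe sets and the dotted line the floor. The red lines of Cacna1c, Cacnb2, Hcn2 (94195_r_at), Kcnh2 and Kcnj11 lie wholly right of the dashed line, and none of the 8 sodium channel pore probe sets is red.

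Few channel probe sets passed the test after TAC. At 48 h 0 of 32 were called, where limma called 0.0548% of all probe sets, and the smallest adjusted p was 0.585. The p before adjustment was under 0.05 for 2 of them, or 6.25%, against 6.17% of all. At 10 d 1 was called, Kcnj12, which is 3.12% of the 32 beside 4.87% of all probe sets tested. At 3 wk 1 was called, Cacnb2, again 3.12% beside 4.73% of all. Both fell in TAC hearts, and no channel probe set rose. These shares are near those of the array as a whole.

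Most of the tested channel probe sets lay below 0, whatever their p. The count was 20 of 32 at 48 h, or 62.5%, against 51.7% of all tested. It was 24 at 10 d, or 75%, against 53.1%, and 24 at 3 wk against 51.3%. Their median change was -0.09 at 48 h, -0.31 at 10 d and -0.21 at 3 wk, and that of all tested probe sets was -0.01, -0.02 and -0.01. Under quantile, cyclic loess and median scaling the median of the channel probe sets was -0.30, -0.26 and -0.28 at 10 d, and -0.18, -0.19 and -0.15 at 3 wk. A single array moved the median at 48 h and 3 wk: it was -0.02 without 48 h TAC replicate 1, -0.05 without 48 h TAC replicate 3 or 48 h sham replicate 4 and -0.17 without 48 h sham replicate 2, and at 3 wk -0.35 without TAC replicate 1, -0.32 without TAC replicate 3 and -0.15 without TAC replicate 4 or 5. It stayed below 0 with each array left out. With only each duration's main scan day, 25 lay below 0 at 10 d and 19 at 3 wk. Without any filter, the median change of the 76 was -0.01, -0.15 and -0.21 at 48 h, 10 d and 3 wk. That of all 12422 probe sets was 0.00, -0.01 and -0.03. No count below 0 is given for the 76, since some, such as both Scn1a probe sets, were at the floor on all arrays. Probe sets of 1 array share its RNA and its scaling, so these counts are descriptions. An unadjusted p under 0.05 was found for 9 at 10 d and 9 at 3 wk, 28.1% each, against 21% and 19.6% of all tested, and 8 of the 9 were below 0 both times.

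TAC and sham arrays did not overlap for 0 of 32 at 48 h, against 2.29% of all tested. They did not overlap for 6 at 10 d, or 18.8%, against 15.7%, and for 4 at 3 wk, or 12.5%, against 8.48%. Precision differed among members: the standard error of a change was 0.12 to 0.14 for Cacna1c, Cacnb2, Kcnj11 and Hcn2 (94195_r_at), and reached 0.61 for Kcnn1 at 10 d. In RNA of heart tissue, fewer cells of a type and less RNA per cell cannot be told apart.

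**Figure D2:**
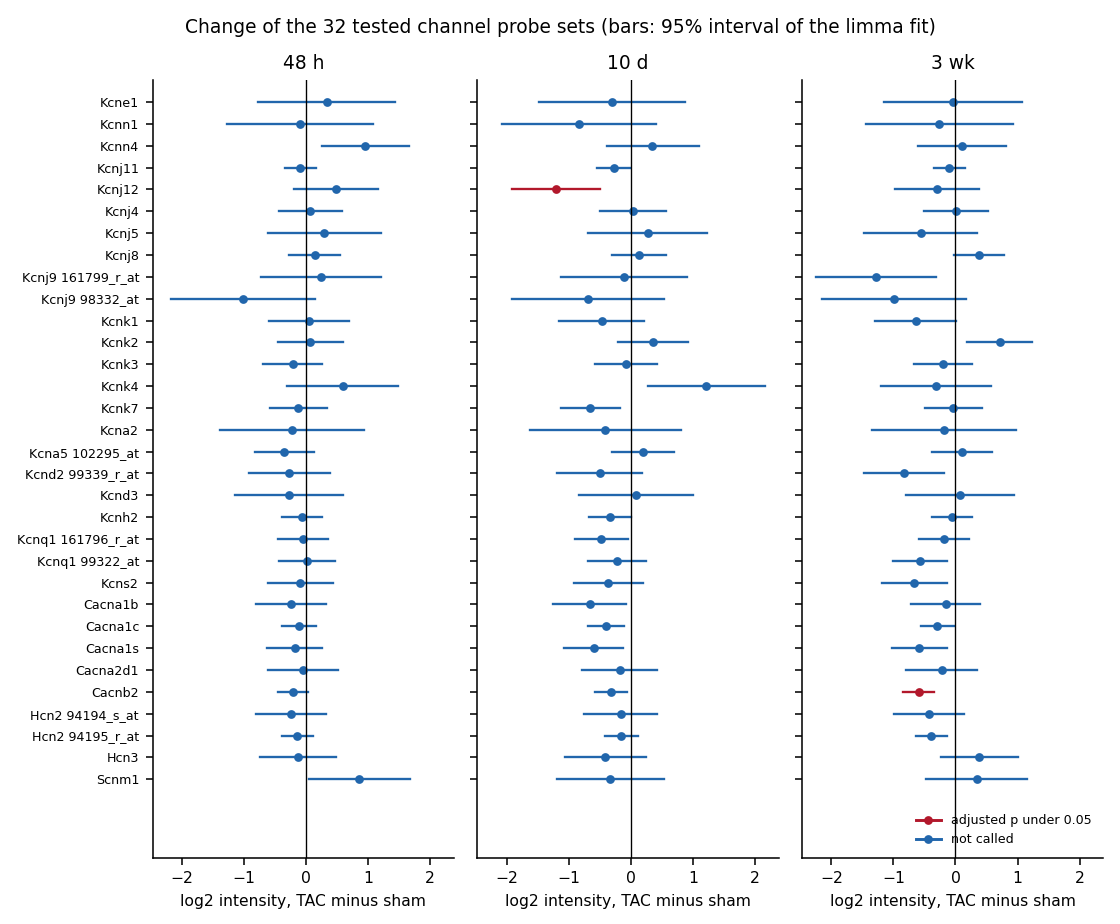
Log2 change, TAC minus sham, of each tested channel probe set at 48 h, 10 d and 3 wk, with the 95% interval of the limma fit; red marks an adjusted p under 0.05. Kcnj12 at 10 d and Cacnb2 at 3 wk are the 2 red points, and 24 of 32 points lie left of 0 at 10 d and at 3 wk.

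The beta subunit of the L-type calcium channel had the smallest p among the 32 tested channel probe sets in the comparisons of TAC with sham. Cacnb2 (100757_at) read 12.43, 12.21, 11.79, 11.94 and 12.04 on the 3 wk TAC arrays, against 12.53, 12.49, 12.74 and 12.95 on the 3 wk sham arrays. Every TAC array lay below every sham array. Means were 12.08 ± 0.25 in TAC hearts (SD, n = 5) and 12.68 ± 0.21 in sham hearts (SD, n = 4), so Cacnb2 fell by 0.59 (SE 0.12, 95% interval -0.84 to -0.35, limma adjusted p = 0.00428), a level 0.663 times that of sham. By p it stood 60th of 345 calls and 13th among those that fell.

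Cacnb2 was also lower on average at the earlier durations without passing the test. At 48 h it read 12.78, 12.84, 12.85, 12.63 and 13.01 in TAC hearts, against 13.10, 12.98, 12.98 and 13.08 in sham hearts, a change of -0.21 (limma adjusted p = 0.824). At 10 d it read 12.17, 11.90, 11.80 and 12.04 in TAC hearts, against 12.21, 12.36, 12.16 and 12.46 in sham hearts, a change of -0.32 (limma adjusted p = 0.133). The groups overlapped by a single array at each of these durations. The 3 wk call was lost with scan day as a block, at -0.47 and adjusted p = 0.204, and with only the 3 wk arrays of the main scan day, at -0.47 and 0.195. Both settings compare the same, fewer arrays, TAC replicates 1, 2 and 3 with sham replicates 2 and 3, so they are not separate checks. The call was also lost when only the 3 wk groups entered the fit, at -0.59 and 0.0614.

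Muscle markers and markers of other cells also differed between the 3 wk groups. The 8 ventricular muscle markers summed to 714 to 827 units of 1000 in TAC hearts and 863 to 1080 in sham hearts, with a median change of -0.36. Of those 8, 1 fell, the creatine kinase gene Ckm, by 0.37 (adjusted p = 0.0364). Fibroblast markers summed to 171 to 260 in TAC hearts and 128 to 175 in sham hearts, in the same units, and 5 of 9 rose. Macrophage markers summed to 41.4 to 55.5 in TAC hearts and 34.8 to 38.5 in sham hearts, and 4 of 6 tested rose. Atrial muscle markers, with the sums given above, had a median change of -1.83 over 5 tested, and adipocyte markers one of -0.45 over 2 tested, with none called in either list. The 3′ to 5′ intensity ratio of Gapdh, a sign of RNA quality, was 0.842 to 1.015 in TAC hearts and 0.926 to 1.144 in sham hearts. None of these markers was at the floor on all arrays, and the part of cell makeup or RNA quality in the fall of Cacnb2 was not tested.

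Cacna1c, the pore that Cacnb2 serves, read 13.42, 13.13, 13.20 and 12.99 on the 10 d TAC arrays, against 13.50, 13.69, 13.46 and 13.68 on the 10 d sham arrays. All TAC arrays lay below all sham arrays, but the change of -0.40 (SE 0.14) missed the threshold, at adjusted p = 0.0948. At 3 wk the change was -0.29 (adjusted p = 0.217) and at 48 h -0.11 (0.97), with overlapping arrays both times. The 10 d change passed with limma's array weights, at -0.39 and 0.0414, and with only the 10 d groups in the fit, at -0.40 and 0.0428. It passed under only these 2 of 41 alternatives. Without TAC replicate 4 it was -0.33, with limma adjusted p = 0.228. Over the alternatives the 3 wk change ranged from -0.36 to -0.05, and none passed.

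The other tested calcium channel genes were not called. Cacna1s, the L-type pore of skeletal muscle, differed by -0.59 at both 10 d and 3 wk, with adjusted p of 0.129 and 0.117. Its 3 wk TAC arrays at 9.42, 9.13, 9.62, 9.40 and 9.51 all lay below the sham arrays at 10.31, 9.75, 9.74 and 10.20. Skeletal muscle markers summed to 24.8 to 40.4 units of 1000 in TAC hearts and 28.4 to 40.7 in sham hearts at 3 wk, and none was called. Cacna1b, the pore of the neuronal N-type channel, read 10.54, 10.66, 10.60 and 9.21 in 10 d TAC hearts, against 11.08, 10.70, 11.06 and 10.84 in 10 d sham hearts. Its groups did not overlap, and the change was -0.66 (adjusted p = 0.181), -0.32 without TAC replicate 4. Cacna2d1, the extracellular alpha2delta subunit, differed by -0.05, -0.18 and -0.22 at 48 h, 10 d and 3 wk, with adjusted p of 0.993, 0.787 and 0.713.

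**Figure D3:**
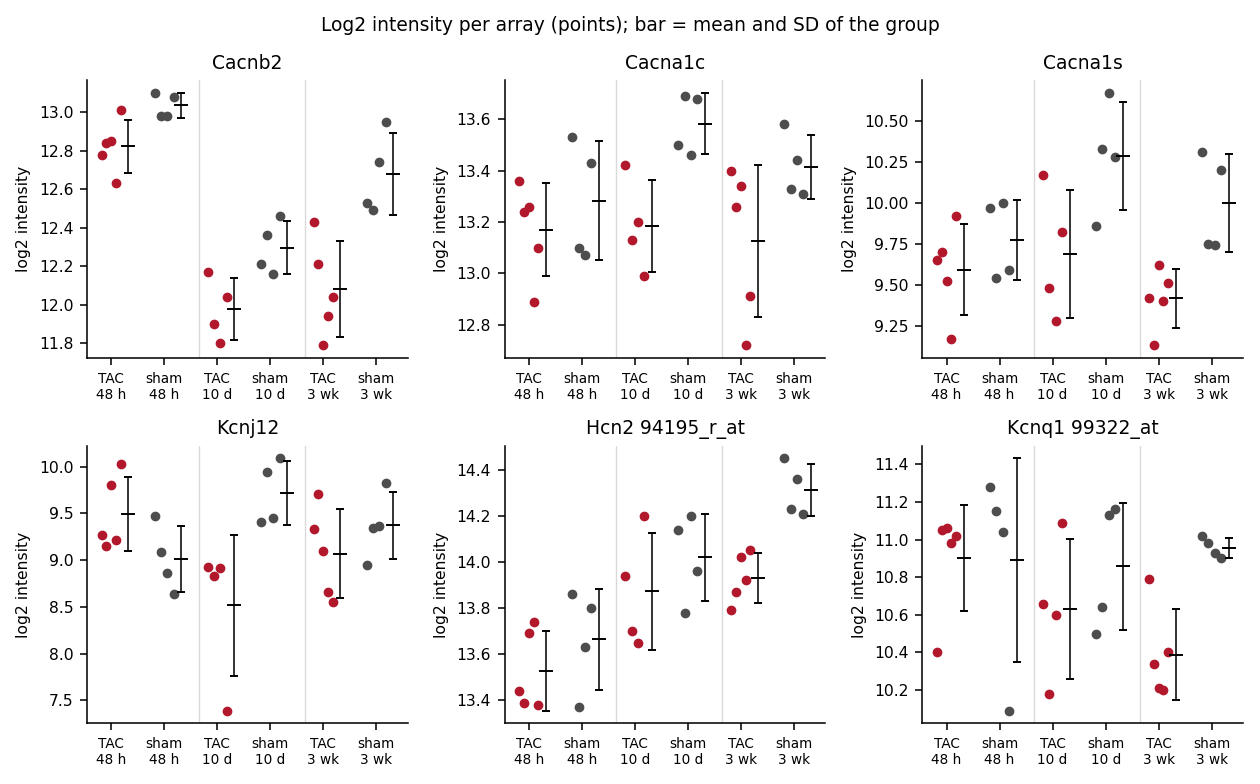
Log2 intensity of Cacnb2, Cacna1c, Cacna1s, Kcnj12, Hcn2 (94195_r_at) and Kcnq1 (99322_at) on each array (points), with the mean and SD of each group beside them, TAC left of sham at each duration. Only Cacnb2 at 3 wk and Kcnj12 at 10 d were called among those shown; at 3 wk the TAC points of Cacnb2, Cacna1s, Hcn2 and Kcnq1 all lie below the sham points.

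Among the inward rectifiers, Kcnj12 (98829_at), a strong inward rectifier subunit, read 8.93, 8.83, 8.92 and 7.39 on the 10 d TAC arrays, against 9.41, 9.94, 9.45 and 10.09 on the 10 d sham arrays. All TAC arrays lay below all sham arrays, and TAC replicate 4, the array with its own scan day and chip lot, was at the floor. Means were 8.52 ± 0.75 in TAC hearts and 9.72 ± 0.34 in sham hearts (SD, n = 4 each), and Kcnj12 fell by 1.21 (SE 0.35, 95% interval -1.92 to -0.49, limma adjusted p = 0.0429). By p it stood 322nd of 355 calls. This is a dim probe set: it was above the pooled median on 2 TAC arrays at 48 h, 2 sham arrays at 10 d and 1 sham array at 3 wk.

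The call of Kcnj12 depends on the settings. Without TAC replicate 4 the change was -0.83, with adjusted p = 0.166, and with the replicate number as a block it was -1.21, with 0.0596. It was also lost without each single 10 d sham array and without TAC replicates 2 or 3, and under other scalings, as listed with the processing alternatives. At 48 h Kcnj12 differed by 0.48 (adjusted p = 0.924) and at 3 wk by -0.30 (0.663), with overlapping arrays. At 10 d fibroblast markers summed to 178 to 232 units of 1000 in TAC hearts and 123 to 137 in sham hearts, and 4 of 9 rose. Macrophage markers summed to 52.3 to 56.6 in TAC hearts and 36 to 39.5 in sham hearts, in the same units, and 5 of 6 tested rose. Endothelial markers summed to 60.6 to 70.3 in TAC hearts and 51 to 54.5 in sham hearts, and 3 of 9 rose. Smooth muscle and pericyte markers summed to 31.6 to 36.2 in TAC hearts and 26.4 to 31.2 in sham hearts, and 1 of 7 rose. The median change of the 8 ventricular markers at 10 d was 0.10, with none called, and the part of these cells in the change of Kcnj12 was not tested.

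The ATP-sensitive channel genes showed no call. Kcnj11, the pore in heart muscle, read 12.89, 12.56, 13.03 and 12.78 in 10 d TAC hearts, against 13.03, 13.04, 13.02 and 13.27 in 10 d sham hearts. The groups overlapped, and the change was -0.27 (adjusted p = 0.226). At 3 wk its change was -0.10 with a 95% interval of -0.35 to 0.15, and at 48 h -0.09 with an interval of -0.34 to 0.16. Kcnj8, the pore known from vascular smooth muscle, differed by 0.14, 0.13 and 0.38 at 48 h, 10 d and 3 wk, with adjusted p of 0.986, 0.793 and 0.299. Abcc9, which encodes a sulfonylurea receptor that completes such channels, differed by -0.36 at 10 d (adjusted p = 0.0836), and the related Abcc8 by -0.20 (0.525).

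The remaining inward rectifiers varied widely among arrays. Kcnj4, a further strong inward rectifier, differed by 0.07, 0.03 and 0.01 at 48 h, 10 d and 3 wk. Kcnj5, a subunit of the acetylcholine-activated channel of atrial muscle, differed by 0.29, 0.27 and -0.56, with adjusted p of 0.986, 0.805 and 0.52. Kcnj3, its partner subunit, was above the pooled median on no array and was not tested. Without the filter its change was 1.02 at 10 d (adjusted p = 0.102), with 1 TAC and 3 sham arrays at the floor, and -0.84 at 3 wk (0.146). Kcnj9, a G protein-gated subunit of neurons, differed at 3 wk by -1.28 on 161799_r_at (adjusted p = 0.113) and -0.99 on 98332_at (0.345), with SDs of 1.13 and 1.40 among the TAC arrays.

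Voltage-gated potassium channels that end the action potential gave no call at any duration. The transient outward pore Kcnd2 (99339_r_at) read 9.06, 8.66, 9.09, 8.09 and 10.02 in 3 wk TAC hearts, against 9.69, 9.91, 10.06 and 9.60 in 3 wk sham hearts. The groups overlapped through TAC replicate 5, and the change was -0.83 (adjusted p = 0.128). Without that array it was -1.09, with adjusted p = 0.0402, the only 1 of 40 alternatives that passed. With each single array left out it ranged from -1.09 to -0.61, with limma adjusted p up to 0.357. The other Kcnd2 probe set (98364_at) was not tested and without the filter gave -0.66 (0.231). Kcnd3, the other main pore of that current, differed by 0.08 at 3 wk, with an interval of -0.79 to 0.95.

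Kcnq1, the slow delayed rectifier, was measured by 2 probe sets. On 99322_at it read 10.79, 10.34, 10.21, 10.20 and 10.40 in 3 wk TAC hearts, against 11.02, 10.98, 10.93 and 10.90 in 3 wk sham hearts. All TAC arrays lay below all sham arrays, yet the change of -0.57 had an adjusted p of 0.122. On 161796_r_at the 3 wk groups overlapped, at -0.19 (adjusted p = 0.645), while its 10 d arrays did not, at -0.48 (0.181). Kcne1, the auxiliary subunit that slows Kcnq1, differed by -0.04 at 3 wk, with an interval of -1.15 to 1.08.

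Kcnh2, the rapid delayed rectifier, differed by -0.07, -0.33 and -0.05 at 48 h, 10 d and 3 wk, with adjusted p of 0.992, 0.245 and 0.896. Kcna5 (102295_at) differed by -0.35, 0.20 and 0.11, with 0.899, 0.704 and 0.844. Kcns2, a subunit that forms no channel by itself and modifies others, differed by -0.66 at 3 wk (adjusted p = 0.132). It passed the filter only through 3 wk arrays, 4 sham and 2 TAC, so this change lies in the groups that admitted it to the test. Kcna2, a pore known from axons, had standard errors of 0.56 to 0.59 and differed by -0.41 at 10 d.

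Among the two-pore potassium channels none was called, with values on both sides of 0. Kcnk4, a mechanically gated background channel, read 10.46, 10.92, 10.67 and 11.39 in 10 d TAC hearts, against 8.89, 10.43, 9.85 and 9.38 in 10 d sham hearts. All TAC arrays lay above all sham arrays, and the change was 1.22 (SE 0.46, adjusted p = 0.116). At 3 wk it was -0.31 (0.751). Kcnk7, for which no current of its own is established, read 10.16, 10.57, 10.20 and 10.46 in 10 d TAC hearts, against 11.27, 10.81, 10.92 and 10.96 in 10 d sham hearts. Its TAC arrays all lay below, and the change was -0.65 (adjusted p = 0.104), with -0.04 at 3 wk.

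Kcnk2, another mechanically gated channel, read 10.49, 10.13, 9.92, 10.33 and 10.34 in 3 wk TAC hearts, against 8.58, 9.98, 9.28 and 10.30 in 3 wk sham hearts. The groups overlapped through sham replicates 2 and 4, and the change was 0.71 (adjusted p = 0.111). Without sham replicate 4 it was 0.96, with adjusted p = 0.0375, the only 1 of 40 alternatives that passed. With each single array left out it ranged from 0.39 to 0.96, with limma adjusted p up to 0.41. Kcnk1, a weakly rectifying background channel, differed by -0.64 at 3 wk (0.264), and Kcnk3, an acid-sensitive one, by -0.21, -0.08 and -0.20 at 48 h, 10 d and 3 wk.

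Of the calcium-activated potassium channels, Kcnn4, known from immune cells and fibroblasts, had the smallest unadjusted p of the 32 at 48 h. It read 9.48, 9.25, 9.59, 8.15 and 9.45 in TAC hearts, against 9.26, 8.10, 7.39 and 8.18 in sham hearts. The groups overlapped, and the change of 0.95 had an adjusted p of 0.585. Kcnn1, a small-conductance channel, differed by -0.84 at 10 d with an interval of -2.08 to 0.40, and by -1.40 without TAC replicate 4, -0.43 without TAC replicate 1 and -0.56 without TAC replicate 3. Scnm1, which shares the Scn prefix but encodes a splicing factor, differed by 0.86 at 48 h (adjusted p = 0.781).

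The pacemaker gene Hcn2 came close to the threshold at 3 wk. On 94195_r_at it read 13.79, 13.87, 14.02, 13.92 and 14.05 in TAC hearts, against 14.45, 14.23, 14.36 and 14.21 in sham hearts. The groups did not overlap, and the change was -0.39 (SE 0.12, 95% interval -0.63 to -0.14, adjusted p = 0.0605). It passed under 4 of 41 alternatives, among them quantile normalization, at -0.41 and 0.0351. Over all 41 it ranged from -0.42 to -0.32, with limma adjusted p up to 0.328. The other probe set, 94194_s_at, differed by -0.42 (0.416) with overlapping arrays, from 8.90 to 10.72 in TAC hearts and from 9.52 to 10.80 in sham hearts. Hcn3 differed by 0.38 at 3 wk (0.518), and by -0.15 on the main scan day alone.

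The size of the TAC effect was also compared between durations. The effect at 10 d minus that at 48 h was called for 0 of 32, where limma called 0.0959% of all tested. For 3 wk minus 10 d the count was 0, beside 0.0274%, and for 3 wk minus 48 h it was 0, beside 0%. An unadjusted p under 0.05 was found for 2, 1 and 2 of the 32 in that order, beside 10.6%, 8.39% and 11.2% of all tested. The smallest adjusted p was that of Kcnj12 for 10 d minus 48 h, at -1.68 (SE 0.48, adjusted p = 0.175). For Cacnb2 the 3 wk effect minus the 48 h effect was -0.38 (adjusted p = 0.399). None of the changes above is thus shown to differ between durations. By sign alone, 17 of 32 were below 0 at all 3 durations, among them Cacnb2, Cacna1c, Cacna1s, both Hcn2 probe sets, Kcnh2, Kcnj11 and Kcnk3, and 4 were above 0 at all 3: Kcnn4, Kcnj8, Kcnk2 and Kcnj4.

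Sham hearts differed between durations for more channel genes than TAC and sham hearts did. Between the 10 d and the 48 h sham arrays, 8 of 32 were called, or 25%, where limma called 21.7% of all tested. The share is near the background, and the scan days differ. The potassium channel Kcnk3 read 12.73, 12.70, 12.80 and 12.76 in 10 d sham hearts, against 11.93, 11.66, 11.12 and 11.55 in 48 h sham hearts, and rose by 1.18 (adjusted p = 0.00102). Kcnn4 rose by 1.53 (adjusted p = 0.00356), Scnm1 by 1.43 (0.0156), Cacna2d1 by 0.85 (0.0377), Kcnk7 by 0.68 (0.037) and Hcn2 (94195_r_at) by 0.35 (0.045). Several of these calls depend on the settings. Under quantile and cyclic loess scaling those of Scnm1, Cacna2d1 and Kcnk7 were lost, under median scaling those of Cacna2d1, Kcnk7 and Hcn2, and without 10 d sham replicate 1 those of all 4 of these genes. The call of Kcnn4 was lost with the floor at the 40th percentile, and Kcnn4 was not tested with the filter at the 70th. Scnm1 exceeded the pooled median on 5 arrays, none of them from 48 h. It met the filter only because 2 of these were 10 d sham arrays. Its difference thus lies in a group that admitted it to the test. The call of Kcnk3 was lost under no alternative run.

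Another 2 members were lower in the later sham hearts. Cacnb2 fell by 0.74 (SE 0.13, adjusted p = 1.65e-04), with 12.21, 12.36, 12.16 and 12.46 in 10 d sham hearts against 13.10, 12.98, 12.98 and 13.08 in 48 h sham hearts. Kcnj11 fell by 0.52 (adjusted p = 0.005), with 13.03, 13.04, 13.02 and 13.27 in 10 d sham hearts against 13.91, 13.52, 13.50 and 13.53 in 48 h sham hearts. For both genes the 2 groups did not overlap, and both calls were made under every alternative run.

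Between the 3 wk and the 10 d sham arrays, 2 of 32 were called, or 6.25%, where limma called 2.86% of all tested. Kcnk3 read 10.43, 11.10, 11.13 and 11.44 in 3 wk sham hearts, against 12.73, 12.70, 12.80 and 12.76 in 10 d sham hearts, and fell by 1.72 (adjusted p = 4.19e-04). Its TAC arrays read 11.10 to 11.94 at 48 h, 12.46 to 12.85 at 10 d and 9.96 to 11.46 at 3 wk. Kcnj11 fell by 0.61 (adjusted p = 0.00972), with 12.52, 12.31, 12.35 and 12.74 in 3 wk sham hearts. Median centring moved the median change of all tested probe sets to -0.16 in the first sham comparison, against 0.05, and to -0.09 in the second, against 0.03.

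The 2 subunits of the acetylcholine-activated channel of atrial muscle are given beside the atrial markers. Kcnj3 read 8.90, 9.52, 9.52 and 9.75 in 3 wk sham hearts, against 7.39, 7.39, 7.39 and 8.18 in 10 d sham hearts, where 3 arrays were at the floor. Without the filter the difference was at least 1.83, a lower bound because those 3 values were raised to the floor, and the fit of the raised values gave an adjusted p of 0.00456. Kcnj5 differed by 1.43 (adjusted p = 0.0882), from 9.61 to 10.49 in 3 wk sham hearts and from 7.39 to 9.77 in 10 d sham hearts. The 7 atrial markers summed to 83.2 to 236 units of 1000 in 3 wk sham hearts and 12.7 to 131 in 10 d sham hearts, with 0 of 5 tested called. None was at the floor on all arrays, and their part was not tested.

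**Figure D4:**
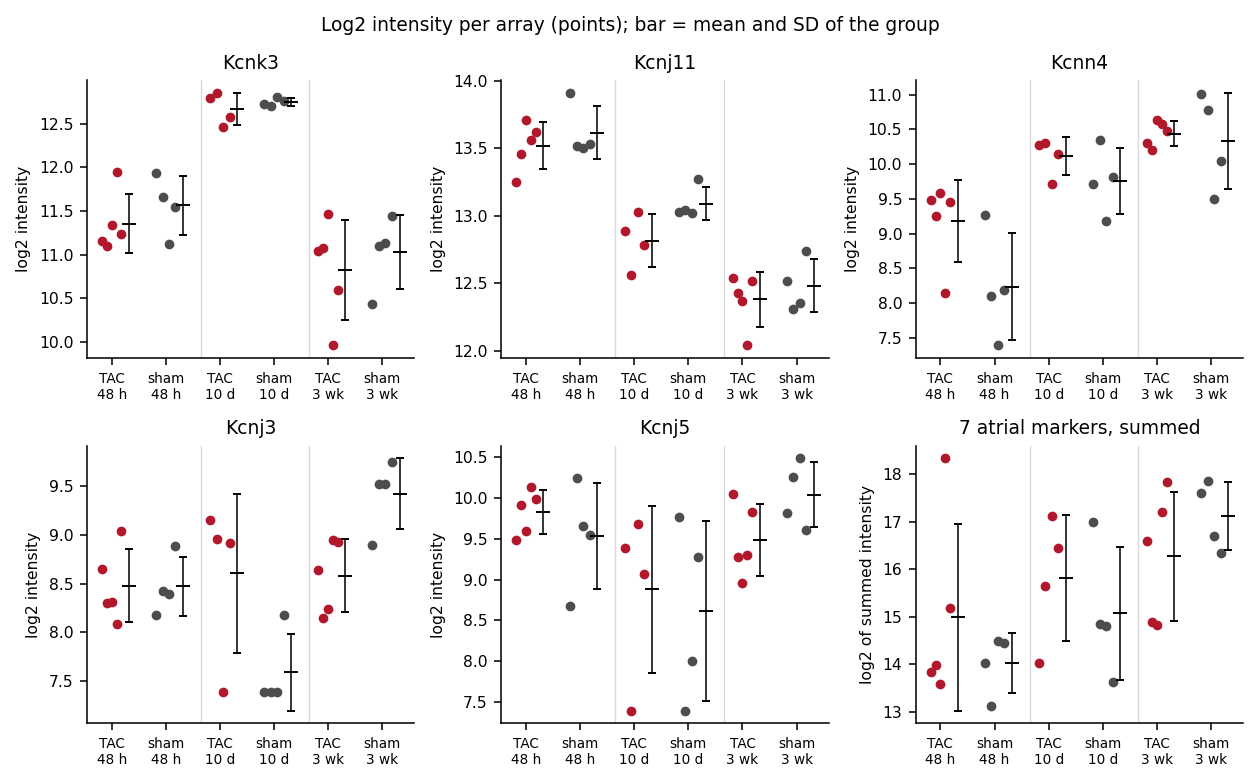
Log2 intensity of Kcnk3, Kcnj11, Kcnn4, Kcnj3 and Kcnj5 on each array, TAC left of sham at each duration, with log2 of the summed intensity of the 7 atrial muscle markers in the last panel. Kcnk3 lies from 12.46 to 12.85 on the 10 d arrays of both surgeries and below 12 at the other durations, and Kcnj3 is at the floor on 3 of the 4 sham arrays at 10 d.

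Without the filter, 1 further channel probe set was called after TAC. Cacng2, a calcium channel gamma subunit known chiefly as an auxiliary protein of glutamate receptors in brain, fell at 3 wk by 0.84 (SE 0.16, adjusted p = 0.0072), with 1 TAC array at the floor. Its intensity was 95.4 to 476.3 on the 26 arrays, with 8 at or below the floor. It also differed between the 10 d and the 48 h sham arrays, by 0.70 (0.00834), with 2 of the 48 h arrays at the floor. Scn3a was also called there, at 0.27 (0.0376), but it was at or below the floor on 24 of the 26 arrays, so the size of that difference is set by the floor.

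For 13 genes there was more than 1 probe set, 26 in all, and both were tested for 3: Hcn2, Kcnj9 and Kcnq1. At 3 wk both probe sets of each of these genes were below 0 in TAC hearts. At 48 h the Kcnj9 probe sets lay on opposite sides of 0, at 0.24 and -1.02, as did those of Kcnq1, at 0.02 and -0.05. For Kcna5, 161775_f_at was below the pooled median on all arrays, while 102295_at was above it on all. The suffixes s, r and f mark probe sets that may detect several transcripts or were chosen under relaxed design rules.

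Other genes of membrane excitability, among them gap junction proteins, channel partners, pumps and exchangers, gave no call after TAC. The list held 65 genes, 44 with a probe set and 32 tested, and 0 rose and 0 fell at 48 h, 10 d or 3 wk. Of all probe sets tested, limma called 0.0548%, 4.87% and 4.73% at these durations, so 0 of 32 is near the background. The median change of the 32 was 0.01, -0.20 and -0.11, against -0.01, -0.02 and -0.01 of all tested. Gja1, the main connexin of ventricular muscle, differed by 0.09, -0.02 and -0.22. P2rx4, an ATP-gated cation channel, was closest to the threshold at 3 wk, at 0.83 (adjusted p = 0.0511), and it was singled out after its values were seen.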

How the data were processed

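RNA from mouse heart was measured on 26 MG_U74Av2 arrays. The deposited table holds intensity on a linear scale, 1 value per probe set and array, from 0.4 to 335354.1, and no source used here says how the authors summarised the probes. The mean after trimming 2% at each end was 2501.8 to 2502.2 on every array. No further scaling was applied; values under the 20th percentile (167.9) were raised to it before log2. After removal of 66 controls from 12488 probe sets, testing was limited to those exceeding the pooled median (880.1) on at least 4 arrays. Genes were named from the probe table given with the series, in which 10833 probe sets name 1 gene, 396 several and 1193 none. All 76 channel probe sets matched the RefSeq gene table.

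One limma model (lmFit, eBayes with an intensity trend) with a mean for each of the 6 groups gave all changes, with Benjamini-Hochberg adjustment over 7297 probe sets and a threshold of 0.05. Tools were R 4.3.3, limma 3.58.1, Python 3.11.15 and pandas 2.3.3. The fit was tested on simulated data. Scan days (5, with none given for 2 arrays) and chip lots are per the file headers of the array description files. The number of arrays limits the precision.

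The members and gene lists were chosen with earlier results of these data known. The text names every channel gene called in a comparison of TAC with sham, between durations or between sham groups, a list of channels known from heart, the probe set of highest mean intensity in each subfamily (a rule of choice only) and genes with several probe sets. Values of other tested members are given as ranges, counts or examples. Some channel genes are not reported here. Same-numbered TAC and sham arrays did not deviate together, so replicate numbers were not taken as pairs. Alternatives were other scalings, floors, filters, variance models, array weights, blocks by replicate number or scan day, fewer arrays, and leaving out each array in turn.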

Additional observations from a re-analysis of the deposited data

Results flagged for a closer look

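Of 192 groups of values (32 probe sets in 6 groups), 18 had a single array at an end of the range far from the nearest of the others. Chance flags about 5% of groups. All values are log2 levels.

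Low arrays in TAC groups were these. Kcnj12 was at 7.39 on 10 d TAC replicate 4, with the others from 8.83 to 8.93, and Cacna1b was at 9.21 on that same array, with the others from 10.54 to 10.66. Cacna1b was at 9.59 on 3 wk TAC replicate 2, Kcnj4 at 9.53 on 10 d TAC replicate 3, and Kcnd3 at 7.55 on 48 h TAC replicate 3, where the other Kcnd3 values were 10.38 to 10.73. At 48 h, Kcnj8 was at 10.59 on TAC replicate 5, Kcnn4 at 8.15 on TAC replicate 4 and Kcnq1 (99322_at) at 10.40 on TAC replicate 1.

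In sham groups, low arrays were Hcn2 (94194_s_at) at 9.52 on 3 wk replicate 1, Kcna2 at 7.62 on 3 wk replicate 2 and Kcnn1 at 8.36 on 3 wk replicate 4. Kcns2 was at 8.93 on 10 d replicate 3. Among 48 h sham arrays, Kcnh2 was at 12.52 on replicate 3, and Kcnj4 at 9.24 and Kcnj9 (98332_at) at 9.28 on replicate 2. High sham arrays were Kcnj11 at 13.91 on 48 h replicate 1 and at 13.27 on 10 d replicate 4, and Kcnj4 at 10.11 on 10 d replicate 3.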

How the results depend on the processing

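At 10 d the count of called channel probe sets, 1, became 0 under quantile, cyclic loess and median scaling and with the replicate block. Scan day as a block and the main scan day only gave 0 as well, and both leave TAC replicate 4 out of the comparison. With a 70th percentile filter, where only 14 channel probe sets were tested and Kcnj12 was not, the count was 0. It was also 0 with a 40th percentile floor and with no filter. It was 4 with array weights, which added Cacna1c, Cacnb2 and Kcnk7, all lower, and 3 with only the groups compared, which called Cacna1c and Kcnk7 lower and Kcnk4 higher. With single arrays left out it was 0 to 2: 0 without any 10 d sham array or 10 d TAC replicate 2, 3 or 4, and 2, with Kcnk7, without 3 wk sham replicate 1. Adjusted p of Kcnj12 was 0.0522, 0.0617 and 0.0605 under the 3 scalings, and with the floor at the 40th percentile its change was -0.63.

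At 3 wk the count, 1, was 2 under quantile scaling and a filter at the 70th percentile (Hcn2 added), a floor at the 40th percentile (Kcns2) and no filter (Cacng2). Kcns2 had passed the filter only through 3 wk arrays, 4 sham and 2 TAC. The count was 0 with only the groups compared. It was also 0 with scan day as a block and with the main scan day only, which compare the same 3 wk arrays. With single arrays left out it was 1 to 2, with Kcnk2 added without sham replicate 4, Kcnj9 without TAC replicate 1, Kcnd2 without TAC replicate 5, and Hcn2 without 10 d TAC replicate 4 or 48 h sham replicate 2. For 10 d against 48 h sham hearts the count, 8, was 5 under the 3 scalings. It was also 5 with the filter at the 70th percentile, where Kcnn4, Scnm1 and Cacna2d1 were not tested. It was 4 to 8 with single arrays left out, 4 without 10 d sham replicate 1 and 5 without 10 d sham replicate 4 or 48 h sham replicate 2 or 3. For 3 wk against 10 d sham hearts it was 2 to 3, with Kcnj5 added without 10 d sham replicate 1 and Kcnh2 without 3 wk TAC replicate 2. The counts of 0 at 48 h and between durations were 0 under every alternative run.

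Same-numbered TAC and sham arrays had correlations of their deviations from -0.131 to 0.032, so the numbers show no pairing. The replicate block ended the Kcnj12 call, turned the 48 h value of Kcnq1 (99322_at) to -0.00, and changed no other call of TAC against sham.

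Of the 62 changes given, these uncalled ones lay on the other side of 0 under an alternative, and the cause was not tested. At 3 wk Kcne1 was at 0.08 under quantile, 0.09 under cyclic loess and 0.02 under median scaling and 0.14 with array weights, and median scaling gave Kcnh2 0.01 and Kcnk7 0.03. With scan day as a block, and likewise with the main scan day only, 3 wk changes were Kcnk3 0.07, Kcnq1 (161796_r_at) 0.17, Kcnk4 0.49, Hcn3 -0.15, Kcnj11 0.12, Kcne1 0.26 and Kcnj12 0.02, and the 10 d change of Kcnj4 was -0.02. The floor at the 40th percentile gave Kcna2 0.06 at 10 d. With single arrays left out, ranges that crossed 0 were, at 48 h, Kcnj11 -0.14 to 0.01, Kcnj4 -0.07 to 0.18, Kcnq1 -0.16 to 0.08 (161796_r_at) and -0.25 to 0.15 (99322_at), Kcnj9 (161799_r_at) -0.12 to 0.60, Cacna2d1 -0.25 to 0.15 and Kcnh2 -0.17 to 0.04. At 10 d they were Kcnj4 -0.02 to 0.15 and Kcnj5 -0.14 to 0.77. At 3 wk they were Kcne1 -0.47 to 0.25, Kcnd3 -0.04 to 0.21, Kcnj4 -0.20 to 0.27, Kcnk7 -0.34 to 0.13, Hcn3 -0.03 to 0.59, Kcnk3 -0.40 to 0.02 and Kcnh2 -0.14 to 0.09. The number of arrays and, for dim probe sets, the signal over background limit all these values.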
